A study of Mus musculus with 16 samples.

Results

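Mouse splenic B cells fall into subsets that differ in surface receptors, and 8 genes that mark those subsets or the whole B lineage are described here. Each lies on its own chromosome. The genes are Fcer2a, Cr2, Mzb1, Cd93, S1pr3, Dtx1, Ebf1 and Pax5, chosen by name out of 24495 gene symbols in the series. They were followed in B cells of 4 spleen libraries, taken as the barcodes with at least 1 molecule of Cd79a and none of Cd3d, Cd3e or Cd3g. That gate kept 5819 of 8599 cells. The study set mice that lack Aire, a gene of thymic tolerance, beside Aire+/+ mice, all C57BL/6 and carrying MC38 colon tumors. Each genotype received anti-PD1 antibody or an isotype control, and spleens were taken on day 19. Spleen cells of several mice were pooled per condition, sorted for CD45, and sequenced as 1 droplet library per condition.

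Follicular B cells recirculate through the white pulp and carry much CD23, the low-affinity IgE receptor encoded by Fcer2a, with a moderate amount of CD21, the complement receptor encoded by Cr2. Marginal zone B cells stay at the edge of the white pulp, carry much CD21 and little CD23, and need Notch2 signaling to form. Transitional B cells are recent arrivals from the bone marrow and carry CD93, while plasma cells secrete antibody and fill with endoplasmic reticulum chaperones such as Mzb1.

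A unique molecular identifier (UMI) marks a single captured RNA molecule. A series of 4 values runs through the Aire+/+ libraries and then the Aire−/− ones, with isotype before anti-PD1 in each genotype. The gate held 1378, 1426, 1324 and 1691 B cells, which were 65.8%, 68.3%, 65.4% and 70.7% of the cells past the quality filter. Those B cells held 7096562, 6809433, 6782782 and 8416490 UMIs, with a median per cell of 4225, 4162.5, 4469 and 4288. Depth per cell was thus alike in the 4 libraries. The comparison cells were 1675 cells with a Cd3 UMI and no Cd79a UMI, at a median of 5849, 5538, 5531 and 5210.5 UMIs, deeper than the B cells. With 1 library per condition, no difference between conditions has a replicate check. All intervals are 95% exact intervals (Clopper-Pearson for shares, Poisson for sums, conditional for ratios) and cover counting error only.

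The median gated cell held 17, 17, 19 and 19 Cd79a UMIs, and only 6, 11, 4 and 9 cells passed on a single Cd79a UMI. A list of 7 T cell markers summed to 29.0, 30.7, 31.0 and 26.0 CPM (UMIs per 1000000 UMIs of the same cells) in the gated cells, led by Lck in each library. In the Cd3-positive cells the same list summed to 2627, 2490, 2651 and 2913 CPM. A list of 7 myeloid genes summed to 197, 222, 111 and 216 CPM in the gated cells, led by Lyz2, a list of 5 natural killer (NK) cell genes to 30.6, 9.55, 36.7 and 82.6 CPM, led by Gzma, and 16, 10, 8 and 15 gated cells held at least 2 UMIs of other-lineage markers. Another 149 cells carried both Cd79a and Cd3 UMIs and were left out, and no other step against doublets was taken. Pairs of libraries shared between 3 and 16 cell barcodes, and between 1 and 7 gated ones. Aire itself gave 2, 5, 4 and 0 UMIs in the gated cells. So few UMIs, read from the end of the RNA, do not check the genotype labels. In the tumor CD45+ libraries the same gate found only 22 of 9069 cells, so the 8 genes are described in spleen.

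Ebf1 and Pax5 encode transcription factors that specify and hold B cell identity. Ebf1 was detected in 33.5%, 33.0%, 31.6% and 29.7% of the B cells, and Pax5 in 14.2%, 13.4%, 9.29% and 10.1%. Both were low-count genes captured in a minority of cells in every library. Among the 1675 Cd3-positive cells, 0.239% had an Ebf1 UMI and none had a Pax5 UMI. In the library with the fewest such cells, 0 of 327, a floor of 3 counts allows a share of up to 0.917%, and the exact interval reaches 1.12%. Detection of both genes in the gated cells therefore stood far above that in the Cd3-positive cells.

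Fcer2a, the CD23 gene, was detected in 68.9%, 70.5%, 70.8% and 74.9% of the B cells. Its level was 424, 489.6, 474 and 529 CPM, lowest in the Aire+/+ isotype library and highest in the Aire−/− anti-PD1 library. Cr2, the CD21 gene, was detected in 56.9%, 51.6%, 55.1% and 55.2% of the B cells, at 393, 329, 337 and 342 CPM. Here the Aire+/+ isotype library was the highest, and the other libraries lay close together. The Cd3-positive cells showed Fcer2a in 0.358% and Cr2 in 1.25% of cells. By library Cr2 was in 0.612%, 0.748%, 0.443% and 2.82% of them, highest in the Aire−/− anti-PD1 library.

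S1pr3 encodes a receptor for the lipid sphingosine 1-phosphate, which holds marginal zone cells near the blood. It was detected in 8.42%, 5.61%, 5.51% and 6.74% of the B cells, at 24.5, 17.6, 15.9 and 22.6 CPM. The Aire+/+ isotype and the Aire−/− anti-PD1 libraries were the higher pair. Only 2 of the 1675 Cd3-positive cells had an S1pr3 UMI. After every cell was thinned to 2000 UMIs, which dropped 96 shallower cells, detection was 4.02%, 2.11%, 1.38% and 2.68%, with the libraries in the same order.

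Dtx1 encodes Deltex, a gene switched on by Notch. Detection in the B cells was 36.2%, 30.9%, 37.1% and 32.9%, at 183, 155, 166 and 159.8 CPM. The Cd3-positive cells held Dtx1 as often as the B cells did, in 38.4% of cells over the 4 libraries and in 37.3% to 39.7% of cells in each. The cells with neither Cd79a nor Cd3 had it in only 3.97%. At 2000 UMIs per cell the B cells reached 19.5%, 17.9%, 21.3% and 18.7%, and the Cd3-positive cells 19.6%, 20.2%, 21.8% and 21.8%. The level of Dtx1 in the Cd3-positive cells was 117, 136, 139 and 144 CPM, below that of the B cells in each library. Detection of Dtx1 thus sorted cells within the B lineage, as described next, without telling B cells from T cells.

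Mzb1 was detected in 74.5%, 71.2%, 75.1% and 75.2% of the B cells, at 601, 538, 592 and 640.2 CPM. A small group of cells held much of it. The 17, 7, 14 and 18 cells with at least 20 Mzb1 UMIs carried 19.6%, 15.8%, 20.2% and 26.8% of all Mzb1 UMIs of the gate. They also held 83.5%, 91.9%, 99.3% and 99.8% of the UMIs of Jchain, which joins the antibody units of secreted IgM and IgA. The rest of Mzb1 lay in many cells with few UMIs each. Cd93, a surface glycoprotein, was detected in only 2.47%, 2.59%, 1.89% and 1.60% of the B cells. Over the 4 libraries that was 2.11%, beside 1.73% of the Cd3-positive cells and 17.8% of the cells with neither marker. The Cd3-positive cells were deeper, and at 2000 UMIs per cell Cd93 was found in 1.17%, 1.17%, 0.766% and 0.596% of the B cells and in 0.311%, 0.787%, 0.450% and 0.816% of the Cd3-positive cells. The B cells were thus higher in 3 of 4 libraries, but on 10 to 16 B cells and 1 to 4 Cd3-positive cells each, with intervals that overlap. The share of cells with Cd93 is not read as a share of transitional cells.

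**Figure D1:**
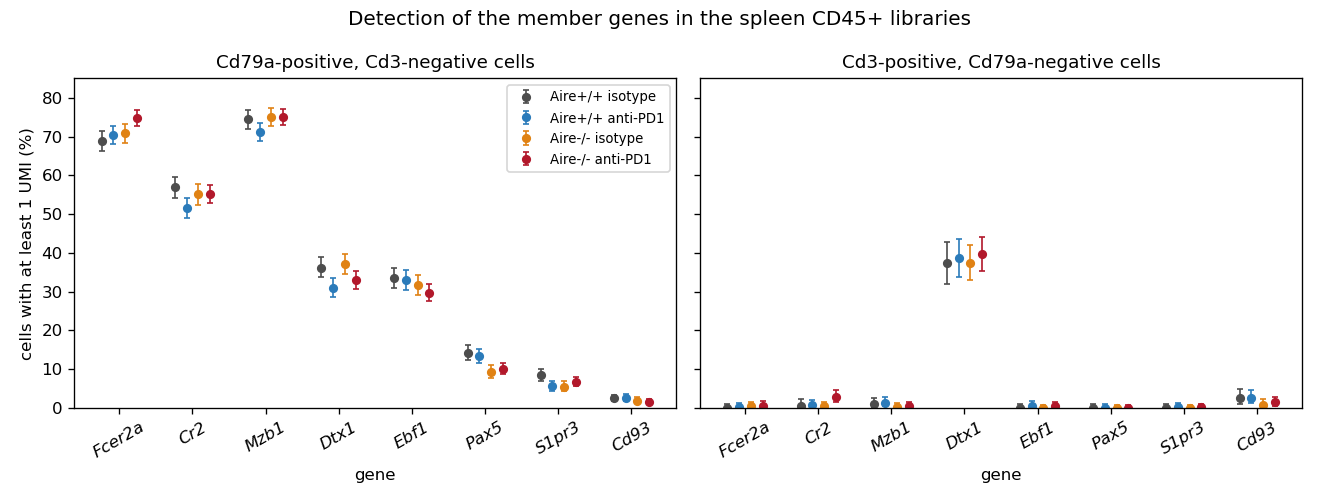
Share of cells with at least 1 UMI of each gene in the Cd79a-positive, Cd3-negative cells (left) and the Cd3-positive, Cd79a-negative cells (right) of the 4 spleen CD45+ libraries, in percent, with exact 95% intervals. Dtx1 reached 37.3% to 39.7% in the Cd3-positive cells, while Fcer2a, Mzb1, S1pr3, Ebf1 and Pax5 stayed near 0 there and Cr2 reached at most 2.82%.

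The median B cell showed 3 of the 8 genes in each library, and 1.96%, 2.10%, 1.96% and 1.83% of cells showed none. Whether genes shared cells was measured as the number of cells with both, over the number expected from their shares within 10 depth groups of each library. Cr2 and Fcer2a met in 2247 cells where 2211 were expected, a ratio of 1.02 (0.975 to 1.06) that ran from 0.988 to 1.03 by library. At a threshold of 1 UMI the CD21 and CD23 genes were thus not mutually exclusive. Thinned to 2000 UMIs per cell, the ratio was 0.932 (0.877 to 0.988).

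S1pr3 and Fcer2a did avoid each other. They met in 107 cells where 209 were expected, a ratio of 0.513 (0.420 to 0.620). S1pr3 met Dtx1 more often than their shares gave, at a ratio of 1.44 (1.28 to 1.61), and met Cr2 at 1.26 (1.13 to 1.40). The Cr2 and Dtx1 pair stood at 1.19 (1.13 to 1.25) and the Fcer2a and Dtx1 pair at 0.908 (0.857 to 0.961). S1pr3, Dtx1 and Cr2 therefore tended to share cells. Fcer2a was clearly short in cells with S1pr3 and, at full depth, slightly short in cells with Dtx1 and not short in cells with Cr2. The Fcer2a and Dtx1 pair stood at 0.717 (0.652 to 0.788) at 2000 UMIs per cell. Ebf1 and Pax5 met about as often as their shares gave, at 1.06 (0.934 to 1.20). Cd93 was short of Dtx1, at 0.376 (0.227 to 0.588), and of Cr2, at 0.602 (0.436 to 0.811), but met Mzb1 at 0.975 (0.787 to 1.19).

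The amount of Cr2 in a cell separated the genes far better than its presence. Fcer2a was detected in 68.9% to 75.8% of the 2636 cells without Cr2, over the 4 libraries, and in 78.6% to 83.0% of the 1237 cells with 1 Cr2 UMI. With 2 to 4 Cr2 UMIs (1253 cells) it was 73.7% to 81.2%, with 5 to 9 UMIs (536 cells) 35.9% to 47.9%, and with 10 or more (157 cells) 18.5% to 28%. The fall came between the groups of 2 to 4 and of 5 to 9 Cr2 UMIs in every library, and the ranges of those groups did not overlap. Cells with more Cr2 were also deeper, where a gene is caught more easily: the median cell held 3793.5 to 4029 UMIs without Cr2 and 8466.5 to 9300 UMIs with 10 or more.

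Dtx1 and S1pr3 were higher in cells with 5 or more Cr2 UMIs than in cells with fewer, in every library. Dtx1 stood at 58.1 to 84.9 CPM without Cr2, 96.5 to 105 CPM with 1 UMI, 182 to 207 CPM with 2 to 4, 345 to 428 CPM with 5 to 9 and 384 to 559 CPM with 10 or more. S1pr3 stood at 4.17 to 5.21, 2.37 to 8.07, 8.54 to 26.5, 57.1 to 70.7 and 56.2 to 123 CPM in the same groups. Past 5 Cr2 UMIs the order was not fixed: Dtx1 was lower with 10 or more than with 5 to 9 in the Aire−/− anti-PD1 library, and S1pr3 in the Aire+/+ anti-PD1 library. Cells with 5 or more Cr2 UMIs thus had less Fcer2a and more Dtx1 and S1pr3, the pattern by which marginal zone cells are known.

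**Figure D2:**
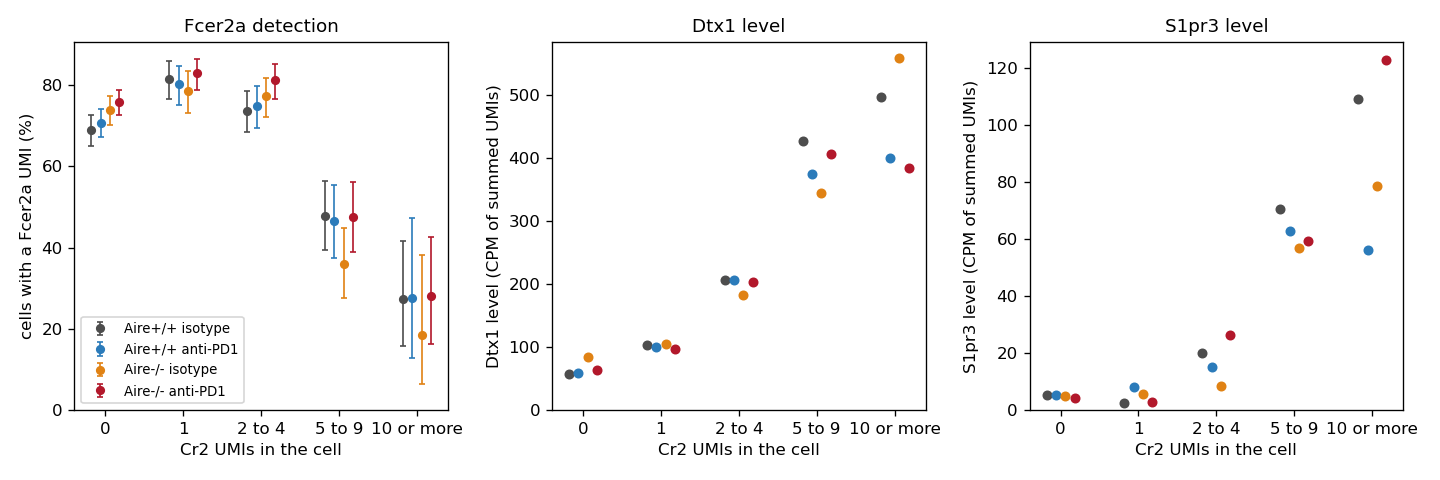
Share of B cells with a Fcer2a UMI (percent, with exact 95% intervals) and the levels of Dtx1 and S1pr3 (CPM of summed UMIs), by the number of Cr2 UMIs in the cell, for each of the 4 libraries. Fcer2a detection was 68.9% to 75.8% without Cr2 and 18.5% to 28% with 10 or more Cr2 UMIs, and Dtx1 and S1pr3 were higher with 5 or more Cr2 UMIs than with fewer.

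Cells were then put in 4 classes by Cr2 and Fcer2a at 1 UMI. Cells with Cr2 and no Fcer2a made up 17.7%, 15.4%, 17.4% and 14.3% of the B cells (244, 219, 231 and 242 cells). Cells with Fcer2a and no Cr2 made up 29.7%, 34.2%, 33.2% and 33.9% (409, 488, 440 and 574 cells). Cells with both were the most numerous class in each library, at 39.2%, 36.3%, 37.6% and 40.9%, and cells with neither made up 13.4%, 14.2%, 11.7% and 10.8%. The rank of the classes depended on depth: at 2000 UMIs per cell, cells with both were 20.8%, 18.6%, 16.6% and 20.7%, below cells with Fcer2a alone (33.3%, 36.5%, 36.2% and 37.1%) and below cells with neither (26.1%, 28.5%, 27.9% and 24.7%) in every library. Many cells sat at the edge of a class: 52, 58, 56 and 68 of the cells with Cr2 alone had a single Cr2 UMI, and 104, 133, 111 and 146 of those with Fcer2a alone had a single Fcer2a UMI.

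The share with Cr2 alone hardly differed by genotype. The Aire−/− share over the Aire+/+ share was 0.985 (0.819 to 1.18) in the isotype pair and 0.932 (0.773 to 1.12) in the anti-PD1 pair. At 2000 UMIs per cell these ratios were 0.975 (0.818 to 1.16) and 1.07 (0.892 to 1.27). Anti-PD1 over isotype was 0.867 (0.719 to 1.05) in Aire+/+ and 0.820 (0.682 to 0.987) in Aire−/− spleens. Both anti-PD1 libraries thus had a lower share of this class than the isotype library of their genotype, and the interval left out 1 only in Aire−/−. Which interval left out 1 turned at 2000 UMIs per cell, with 0.828 (0.691 to 0.991) in Aire+/+ and 0.904 (0.762 to 1.07) in Aire−/−. The share with neither gene was lower in Aire−/− than in Aire+/+ under anti-PD1, at a ratio of 0.764 (0.622 to 0.938). Under isotype that ratio was 0.872 (0.700 to 1.09), and 1.07 (0.921 to 1.24) at 2000 UMIs per cell. The share with both was higher in Aire−/− than in Aire+/+ under anti-PD1, at 1.13 (1.01 to 1.27), but at 2000 UMIs per cell that ratio was 1.11 (0.945 to 1.31). After thinning the interval instead left out 1 for Aire−/− over Aire+/+ under isotype, at 0.797 (0.665 to 0.955) beside 0.960 (0.848 to 1.09) at full depth, and for anti-PD1 over isotype in Aire−/−, at 1.25 (1.05 to 1.49) beside 1.09 (0.968 to 1.22). The share with Fcer2a alone, anti-PD1 over isotype, was 1.15 (1.01 to 1.32) in Aire+/+ and 1.02 (0.901 to 1.16) in Aire−/−. The Aire+/+ ratio was 1.10 (0.964 to 1.25) at 2000 UMIs per cell, where the interval held 1.

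**Figure D3:**
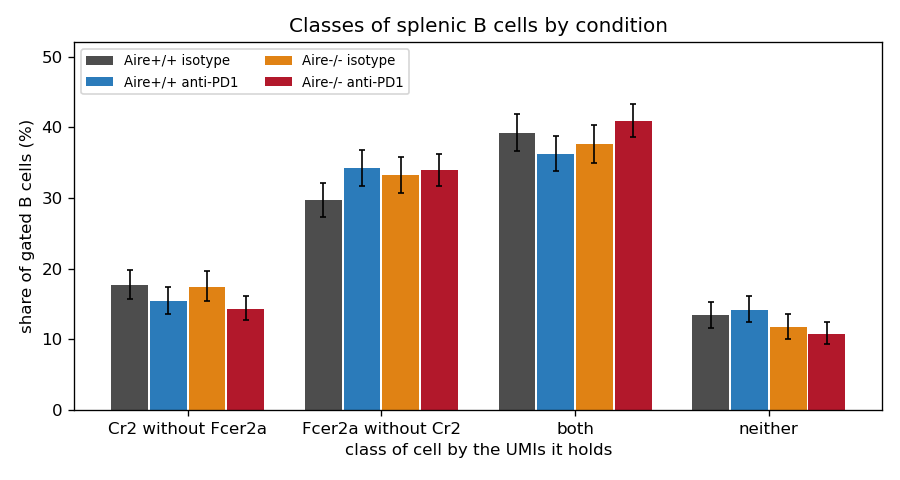
Share of gated B cells in each class by Cr2 and Fcer2a detection (percent, bars) with exact 95% intervals, in the 4 libraries. Cells with Cr2 and no Fcer2a made up 14.3% to 17.7% and cells with both 36.3% to 40.9%.

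The classes were compared within each library, so that all 4 libraries serve as blocks. UMIs were summed per class and library and tested with edgeR's quasi-likelihood test with Benjamini-Hochberg adjustment over all genes. The fit scales each sum by a TMM factor, 0.936 to 0.979 with Cr2 alone and 1.05 to 1.07 with Fcer2a alone, and the CPM printed here carry no such factor, so fitted values here lie above the ratios of CPM. These p-values rest on 4 pools of mice of 4 different conditions. Between cells with Cr2 alone and cells with Fcer2a alone, 2352 of 8845 genes passed an adjusted p of 0.05, or 26.6%. Cr2 and Fcer2a define the classes and are no finding. Of the other 6 members, S1pr3, Dtx1, Mzb1 and Ebf1 passed, all higher with Cr2 alone.

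S1pr3 stood at 75.4, 50.8, 53.1 and 83.0 CPM in cells with Cr2 alone and at 4.19, 1.04, 3.19 and 2.94 CPM in cells with Fcer2a alone. It was high in the former and near 0 in the latter in each of 4 libraries. The log2 fold change was 4.68 (SE 0.196, adjusted p 1.56e-19 by edgeR's quasi-likelihood test with Benjamini-Hochberg adjustment). Dtx1 stood at 412, 377, 350.3 and 363 CPM against 51.4, 49.3, 88.3 and 66.7 CPM. The ranges lay far apart, with a log2 fold change of 2.70 (SE 0.0969, adjusted p 3.38e-21 by the same edgeR test, higher in 4 of 4 libraries). Mzb1 stood at 817, 752, 776 and 800.0 CPM against 388, 360.4, 369 and 412 CPM. The cells with Cr2 alone were higher in 4 of 4 libraries, with a log2 fold change of 1.19 (SE 0.0466, adjusted p 2.50e-20 by the edgeR test). Cells with Cr2 alone were deeper, at a median of 6163, 5793, 5643 and 5891 UMIs against 3755, 3833, 4004 and 3978. At 2000 UMIs per cell the log2 fold changes were 4.01 for S1pr3, 2.24 for Dtx1 and 0.89 for Mzb1, and all of them still passed.

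The lineage factors Ebf1 and Pax5 differed little. Ebf1 stood at 94.2, 107, 86.4 and 78.6 CPM against 86.1, 84.1, 80.3 and 75.1 CPM. It was slightly higher with Cr2 alone in 4 of 4 libraries, by 0.32 on the log2 scale (SE 0.0893, adjusted p 0.00701 by edgeR's quasi-likelihood test), and the adjusted p was 0.0561 without the Aire+/+ anti-PD1 library, 0.214 in DESeq2 and 0.134 at 2000 UMIs per cell. The call also rested on the TMM factors: without them, an alternative chosen after seeing the data, the change was 0.16 (adjusted p 0.164 by edgeR). Pax5 ranged from 18.4 to 32.8 CPM with Cr2 alone and from 20.1 to 32.9 CPM with Fcer2a alone, a log2 fold change of 0.11 (SE 0.151, adjusted p 0.655 by edgeR). Cd93 rested on 23 and 33 UMIs and showed no difference that this depth could detect, at -0.01 (SE 0.494, adjusted p 0.996 by edgeR). Cells with neither receptor gene had 865 to 1726 CPM of Mzb1 and 14.4 to 21.0 CPM of Cd93, above the other classes. Mzb1 was nonetheless detected in only 68.4% to 72.1% of this class and in 82.3% to 87.2% of cells with Cr2 alone. Of the cells with at least 20 Mzb1 UMIs, only 1, 0, 2 and 3 had Fcer2a and 4, 0, 2 and 4 had Cr2.

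**Figure D4:**
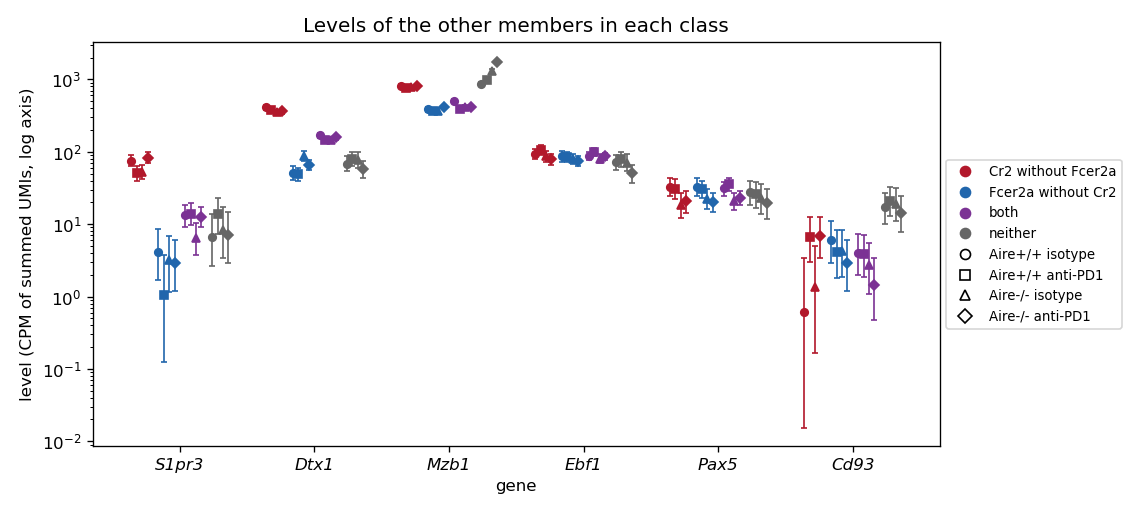
Levels of S1pr3, Dtx1, Mzb1, Ebf1, Pax5 and Cd93 (CPM of summed UMIs, log axis, with exact Poisson 95% intervals) in the 4 classes of B cells, with 1 symbol per library. S1pr3, Dtx1 and Mzb1 were higher in cells with Cr2 alone than in cells with Fcer2a alone in all 4 libraries, and Ebf1 and Pax5 lay close together.

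The marker lists were chosen with earlier results of these data known, so they describe the classes and do not establish what the cells are. All 12 marginal zone genes of a list passed and were higher with Cr2 alone, with a median log2 fold change of 3.22 beside -0.00 over all genes tested. Cd9, a tetraspanin, stood at 116, 113, 127 and 113 CPM against 5.98, 10.4, 15.4 and 12.2 CPM. Cd1d1, which presents lipids to natural killer T cells, stood at 128, 132, 198 and 177 CPM against 23.3, 34.3, 32.4 and 38.2 CPM. Both were several times higher with Cr2 alone in each library, by 3.53 and 2.45 on the log2 scale, and Fcrl5 (3.54), Cd36 (2.66) and S1pr1 (0.85) went the same way.

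Of 10 follicular genes, 9 were lower with Cr2 alone, and the median was -1.12. Klf2, which controls B cell homing, stood at 205, 299, 293 and 329 CPM against 1059, 1083, 1204 and 1272 CPM. The homing receptor gene Ccr7 (-1.60) and the IgM Fc receptor gene Fcmr (-0.80) were also lower. Cxcr5, the receptor that leads cells into follicles, was the exception at 0.41 (SE 0.0806, adjusted p 1.38e-04 by edgeR), higher in 3 of 4 libraries. Of 3 transitional genes with enough counts, Vpreb3 (-1.08) and Sox4 (-2.31) were lower and Cd24a (0.33) was higher, though Cd24a did not pass at 2000 UMIs per cell (adjusted p 0.136 by edgeR). Ighd, the IgD constant region, was looked at after its values were seen. It stood at 230.4, 300.1, 214 and 197 CPM with Cr2 alone and at 668, 676, 499 and 569.8 CPM with Fcer2a alone, lower in the former in every library. Of 18 B cell identity genes, 6 were higher and 8 lower with Cr2 alone (median -0.01), where 26.6% of all genes passed. Ms4a1, Cd22, Cd37, Blk, Blnk and Lyn were higher. Cd79b, Btk, Syk, Spib, Pou2af1, Ikzf3, Fcrla and Ralgps2 were lower. At 2000 UMIs per cell 5 of the 18 passed as higher and 1, Fcrla, as lower.

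Genes of the Notch pathway went both ways. Of 14 tested genes of an 18-gene list, 4 were higher and 4 lower with Cr2 alone, with a median of -0.01. Hes1, a direct Notch target, stood at 99.1, 118, 106 and 93.1 CPM against 45.5, 30.6, 38.3 and 31.5 CPM. It was higher in 4 of 4 libraries by 1.67 (SE 0.107, adjusted p 1.24e-14 by edgeR's quasi-likelihood test), and the related Hes5 by 2.60. The receptor gene Notch2 stood at 85.1, 93.4, 74.8 and 79.9 CPM against 74.8, 62.8, 64.4 and 80.1 CPM. It was higher in 3 of 4 libraries, by only 0.38 (SE 0.0973, adjusted p 0.00262 by edgeR), and by 0.23 without TMM factors, where it did not pass (adjusted p 0.0653). Dtx3 was higher (1.05), and the modifiers Lfng (-0.88) and Mfng (-0.42), the coactivator Maml3 (-1.35) and Dtx2 (-0.43) were lower. The adjusted p of Dtx2, 0.0462 by edgeR, became 0.0627 without the Aire+/+ isotype library, 0.201 without the Aire−/− isotype library and 0.179 without the Aire−/− anti-PD1 library, and that of Mfng became 0.102 without the last. At 2000 UMIs per cell only Hes1 and Hes5 passed among 11 tested genes of the list, with adjusted p in edgeR of 0.0524 for Dtx3, 0.0712 for Lfng and 0.0914 for Notch2.

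The genes with the largest fitted fold changes and at least 100 UMIs, the same direction in every library and an adjusted p under 0.05 were, toward Cr2 alone, Tspan15, Asb2, Ceacam2, Ms4a7, I830077J02Rik, Ffar2, Ackr3, Pla2g7, Rap1gap and Serpine2. Tspan15 had 127 UMIs with Cr2 alone and 0 with Fcer2a alone, at least 54.9-fold higher on a floor of 3 counts over the class. Asb2 had 283 UMIs against 2, a ratio of 183 (50.3 to 1522). Ackr3, a scavenger receptor for the chemokine CXCL12, had 193 against 5, a ratio of 50.04 (21.1 to 156). Toward Fcer2a alone they were Wfdc17, Pde2a, Ly6c2, Arhgap31, Fcgrt, Gpr146, Ms4a4a, Crisp3, Sgk1 and Wfdc21, with log2 fold changes from -2.87 to -2.04. The folds toward Cr2 alone were the larger ones. Jchain passed at 1.72 but was higher in only 2 of 4 libraries, at 9.73, 2.21, 1912 and 2411 CPM against 13.2, 4.67, 1135.5 and 395 CPM. In each Aire−/− library only 4 cells with Cr2 alone held any Jchain.

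S1pr3 and Dtx1, the marginal zone and Notch genes, were also used to split the cells. Between cells with and without a UMI of either, 2227 of 9839 genes passed, or 22.6%, and of the other 6 members Cr2, Mzb1, Ebf1, Fcer2a and Cd93 passed. Cr2 stood at 603, 528, 488 and 541 CPM with either gene and at 212, 195, 210.2 and 197 CPM without. It was higher in 4 of 4 libraries, 2.67-fold over the summed UMIs (2.56 to 2.78, adjusted p 1.08e-14 by edgeR's quasi-likelihood test). Fcer2a went the other way, at 265, 262, 316 and 358 CPM against 560.1, 644, 607 and 653 CPM. It was lower in 4 of 4 libraries by -0.94 (SE 0.0517, adjusted p 2.65e-11 by edgeR).

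Mzb1 was higher with S1pr3 or Dtx1 by 0.55 and Cd93 lower by -1.53, both in 4 of 4 libraries. Ebf1 was higher by 0.19 (SE 0.0640, adjusted p 0.0386 by edgeR), and by 0.09 without TMM factors (adjusted p 0.311). Its adjusted p was 0.0665 without the Aire+/+ isotype library, 0.277 without the Aire+/+ anti-PD1 library and 0.0573 without the Aire−/− isotype library. Pax5 did not pass, at 0.06 (adjusted p 0.761 by edgeR). All 12 marginal zone genes were higher (median 1.95) and 9 of 10 follicular genes lower (median -0.59), with Cxcr5 higher. Cells with either gene were deeper, at a median of 5458, 5346, 5343 and 5003 UMIs against 3858, 3919, 4129 and 4057. At 2000 UMIs per cell 11 of 11 tested marginal zone genes were higher and 7 of 10 follicular genes lower. The genes with the largest fitted changes by the same rule were Asb2, Ackr3, Ms4a7, Ceacam2, I830077J02Rik, Ffar2, Abcb1a, Smyd2, Serpine2 and AW011738 toward S1pr3 or Dtx1. On the other side were Chil3, Igha, Hp, Ccl9, Tgfbi, Lyz2, Ccl6, Ccr2, Slpi and Ifitm2, several of them myeloid genes. The direction of Slpi reversed without Jchain-rich and other-lineage cells. Of 5 tested genes of a 7-gene myeloid list, 4 were lower with S1pr3 or Dtx1. Without Jchain-rich and other-lineage cells 2 of 3 tested genes of the list still passed as lower, Fcer1g and Ly6c2, and neither of these was used to leave out cells.

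Mzb1, as the chaperone gene, split the cells less sharply. Between cells with and without a Mzb1 UMI, 1088 of 9842 genes passed, or 11.1%, and of the other 7 members S1pr3, Dtx1, Cr2 and Fcer2a passed. S1pr3 stood at 30.4, 21.7, 18.5 and 27.0 CPM with Mzb1 and at 0.707, 4.37, 5.83 and 5.27 CPM without. It was higher with Mzb1 in 4 of 4 libraries by 2.65 (SE 0.255, adjusted p 1.88e-08 by edgeR's quasi-likelihood test). Dtx1 was higher by 1.13 and Cr2 by 0.77, and Fcer2a was lower by -0.47, each in the same direction in all 4 libraries. Cd93 (-0.11), Ebf1 (0.07) and Pax5 (0.29) did not pass. Detection of Mzb1 grows with depth, and at 2000 UMIs per cell the changes shrank to 1.14 for S1pr3, 0.51 for Dtx1, 0.34 for Cr2 and -0.22 for Fcer2a, all still past the threshold.

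Of 12 marginal zone genes, 11 were higher with Mzb1 (median 1.11), and 9 of 10 follicular genes were lower (median -0.34). Of 8 plasma cell genes, 6 were higher with Mzb1 (median 1.67), with 7 of 13 endoplasmic reticulum folding genes (median 0.31) and 9 of 10 cell cycle genes (median 2.37). Of 7 germinal center genes, 6 were higher and 1, Bcl6, was lower (median 1.79). All of these compare with a median of -0.01 over all genes tested, and setting genes at 0 on one side to their bound left the medians as they were. The genes with the largest fitted changes toward Mzb1 were Jchain, Prg2, Ighg2c, Birc5, Ccna2, Tnfrsf17, Chst1, Ighg2b, Igha and Ceacam2. Jchain had 53724 UMIs with Mzb1 and 16 without. Prg2 had 644 against 0, at least 56.9-fold higher. Away from Mzb1 they were Tgfbi, Lyz2, Gm21188, Ccr2, Ifitm2, Lyz1, Ifitm3, Csf1r, Clec4a3 and Fcer1g. Without other-lineage cells Ifitm3 reversed direction, as did Lyz2, which was used to leave out cells. With at least 2 Cd79a UMIs 5 named genes of this comparison lost the threshold. Lyz2, at 377, 617, 69.2 and 638 CPM without Mzb1 and 18.5, 9.22, 53.4 and 1.94 CPM with it, is a myeloid gene that was lower with Mzb1 in each library. Of 4 tested myeloid genes 3 were lower with Mzb1 (median -3.08), and so were 4 of 5 NK cell genes (median -2.35), each of these 4 in 3 of 4 libraries.

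Not all of these lists kept their calls. Without cells of at least 20 Jchain UMIs and other-lineage cells, an addition chosen after seeing the data, 11 of 12 marginal zone and 8 of 9 cell cycle genes were still higher and 9 of 10 follicular genes lower. None of 3 tested myeloid genes passed then in edgeR's test (median -0.24), and no NK cell gene had enough counts, but Lyz2, Csf1r, Nkg7 and Klrb1c were used to leave out cells. Fcer1g was not used for that, and without other-lineage cells alone it stood at -0.03 (adjusted p 0.975 by edgeR), beside -2.98 with them. Of 6 germinal center genes 3 were then higher and 1, again Bcl6, was lower. Of plasma cell genes, among them Jchain by which cells were left out, 1 was higher and 1 lower of 6 (median 0.04), and of folding genes 3 were higher and 2 lower of 13 (median -0.13). At 2000 UMIs per cell 10 of 11 marginal zone, 4 of 6 plasma cell and 2 of 13 folding genes were higher, 3 of 10 follicular genes lower, and none of 3 cell cycle and none of 3 germinal center genes passed in edgeR's test.

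Cd93 was found in 34, 37, 25 and 27 B cells. Between those and the cells without it, 1177 of 10234 genes passed, or 11.5%, and of the other 7 members Mzb1, Dtx1, Cr2, S1pr3 and Fcer2a passed. The count was 711 without the Aire+/+ isotype library and 717 without the Aire−/− anti-PD1 library. Dtx1 stood at 36.3, 33.4, 40.9 and 17.5 CPM with Cd93 and at 188, 159, 169 and 164 CPM without. It was lower in 4 of 4 libraries by -2.51 (SE 0.231, adjusted p 3.77e-18 by edgeR's quasi-likelihood test). Cr2 stood at 109, 138, 87.6 and 56.9 CPM against 403, 335, 343 and 349.8 CPM, lower in 4 of 4 libraries by -1.96 (SE 0.169, adjusted p 5.43e-20 by edgeR). Fcer2a was lower by -1.03. S1pr3 was lower by -1.89 on 5 UMIs in Cd93-positive cells, with an adjusted p of 0.0144 by edgeR that became 0.205 without the Aire−/− anti-PD1 library and 0.187 without the Aire+/+ isotype library. Of list genes, 6 of 10 follicular and 4 of 11 tested marginal zone genes were lower with Cd93. Without cells of at least 20 Jchain UMIs and other-lineage cells, 3 of 10 follicular and 3 of 11 marginal zone genes were lower. The medians went from -0.72 to -0.17 (follicular) and from -0.56 to -0.77 (marginal zone). At 2000 UMIs per cell 1 of 10 follicular and 2 of 10 marginal zone genes passed as lower.

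These cells were a mixture. Jchain stood at 52440.4, 10230.5, 35518 and 53057 CPM with Cd93 and at 504, 905, 764 and 719.7 CPM without. All 8 plasma cell genes were higher with Cd93 (median 3.82), and the list summed to 54847, 11147, 37246 and 56014 CPM. All 4 tested myeloid genes of 7 were higher too, and that list summed to 3265, 2416, 2002 and 3797 CPM in the Cd93-positive cells, led by Lyz2 and with C1qa at 0 in all 4 libraries. Plasma cell and myeloid RNA were therefore both abundant among them. Mzb1 stood at 2181, 1394, 1862 and 4125 CPM against 544, 511, 559 and 543 CPM, a log2 fold change of 1.96. The genes with the largest fitted changes toward Cd93 were Prg2, Slpi, Chil3, Tnfrsf17, Jchain, Lyz2, Hp, Lyz1, Tmem176b and Fam46c. Away from it the same rule gave Asb2, Fam167a, Nkg7, Ccr1, Zdhhc8, Cep152, Ttll5, Mir6973a, Gzma and Map3k4. The first 8 of these had 0 UMIs with Cd93, so the size and order of their changes were not measured. On a floor of 3 counts Asb2, with 400 UMIs in cells without Cd93, was at least 4.05-fold lower and Mir6973a at least 1.73-fold lower.

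The comparison was repeated, as an addition chosen after seeing the data, without 38 cells of at least 20 Jchain UMIs and 49 cells with at least 2 UMIs of other-lineage markers, 86 cells in all. That left 98 of 123 Cd93-positive cells and 311 of 9702 genes past the threshold, or 3.21%. None of 6 tested plasma cell genes and none of 3 myeloid genes then passed in edgeR's test, but Jchain, Lyz2, Csf1r and other genes of these lists were used to leave out cells, so this only describes what was taken out. Mzb1 turned to -0.45 (adjusted p 0.0186 by edgeR), while Dtx1 (-2.27), Cr2 (-1.60) and Fcer2a (-0.50) stayed lower. Of 5 tested transitional and precursor genes, 4 were higher with Cd93 both before (median 1.83) and after (median 2.49) this step. They were not alone in this: of 10 cell cycle genes 9 were higher before (median 2.53) and 4 after (median 1.79), and none of 4 passed at 2000 UMIs per cell in edgeR's test. Vpreb3, part of the surrogate light chain system, stood at 423, 458, 578 and 359 CPM with Cd93 and at 246, 249, 278 and 305 CPM without, higher in 4 of 4 libraries. The changes after the step were 1.23 for Vpreb3, 0.92 for Cd24a, 2.85 for Sox4 and 2.99 for Myb. Before it, Sox4 lost its call without the Aire+/+ isotype library (adjusted p 0.0509 by edgeR) or the Aire−/− isotype library (0.187), and Myb without the Aire+/+ anti-PD1 library (0.0519) or the Aire−/− anti-PD1 library (0.207). At 2000 UMIs per cell none of these genes passed, with adjusted p from 0.0958 to 0.418 by edgeR. Dtx1 and Cr2 did pass there, at -2.37 and -2.48.

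Across conditions, each member's UMIs were summed over the gated cells and divided by all their UMIs. A gene was counted as changed at 2-fold or more. None of the 8 members passed in any of the 4 comparisons, beside 4.10% of all genes for Aire−/− over Aire+/+ under isotype and 4.10% under anti-PD1. For anti-PD1 over isotype the shares were 3.36% in Aire+/+ and 3.69% in Aire−/−. These include genes with as few as 10 UMIs over the pair. Among genes with at least 100, as all members but Cd93 had, the shares were 0.275%, 0.644%, 0.224% and 0.281% in the same order, so few genes of that depth changed either. Comparisons share libraries, so their signs are not counted against each other.

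The lineage factor Pax5 was lower in both Aire−/− libraries. It stood at 31.4, 31.9, 20.9 and 21.5 CPM. On the log2 scale Aire−/− relative to Aire+/+ came to -0.59 (-0.90 to -0.28) in the isotype pair and to -0.57 (-0.86 to -0.28) in the anti-PD1 pair. Anti-PD1 over isotype was 0.02 in Aire+/+ and 0.04 in Aire−/−. At 2000 UMIs per cell Pax5 was detected in 6.73%, 6.34%, 4.06% and 4.17% of B cells, again higher in both Aire+/+ libraries. Ebf1 stood at 86.2, 93.4, 80.6 and 77.6 CPM. Its log2 ratio was -0.10 (-0.27 to 0.07) in the isotype pair, and -0.35 at 2000 UMIs per cell. In the anti-PD1 pair it was -0.27 (-0.43 to -0.11).

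Ratios of the receptor genes were small. Fcer2a in Aire−/− relative to Aire+/+ was 0.16 (0.09 to 0.24) in the isotype pair and 0.11 (0.05 to 0.18) in the anti-PD1 pair. The isotype value did not hold after thinning, which gives each cell the same weight. It was -0.013 at 2000 UMIs per cell, where Fcer2a was detected in 54.0%, 55.1%, 52.7% and 57.8% of B cells. With anti-PD1 relative to isotype Fcer2a was 0.21 in Aire+/+ (0.086 at 2000 UMIs per cell) and 0.16 in Aire−/− (0.24). Cr2 was lower in Aire−/− under isotype, at -0.22 (-0.30 to -0.14), and not under anti-PD1, at 0.05 (-0.03 to 0.13), or 0.16 at 2000 UMIs per cell. In Aire+/+ anti-PD1 went with less Cr2, at -0.25 (-0.34 to -0.17).

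S1pr3 went in opposite directions. Its Aire−/− value relative to Aire+/+ was -0.62 (-0.98 to -0.27) in the isotype pair and 0.36 (0.02 to 0.70) in the anti-PD1 pair. When cells were thinned to 2000 UMIs the isotype value was -1.24, but S1pr3 was then left in only 55 Aire+/+ and 18 Aire−/− isotype cells. Dtx1, which tended to share cells with S1pr3 but was found in many more cells, was at -0.14 (-0.25 to -0.02) and 0.04 (-0.07 to 0.16). Its isotype value turned to 0.041 when thinned. Mzb1 stayed the same under isotype, at -0.02 (-0.09 to 0.04), and was higher in Aire−/− under anti-PD1, at 0.25 (0.19 to 0.31). Without Jchain-rich and other-lineage cells that ratio was 0.10. Cd93 rested on 40, 47, 33 and 37 UMIs, and its ratios of -0.21 (-0.92 to 0.49) and -0.65 (-1.31 to 0.00) were not told apart from no difference.

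Promoters of the members were searched for the core of the RBPJ motif, TGGGAA, through which Notch acts, and for the core of the EBF motif, CCCNNGGG, on both strands. The set of RefSeq promoter windows used, in GRCm38.p6, held 9 windows for 6 of the 8 members. It held none for Cd93 and Mzb1, so their promoters were not searched. The RBPJ core was in 5 of the 9 windows, beside 25.6% of 32851 promoter windows of all genes. The EBF core was in 1 of the 9, beside 13.7% of all. The windows of S1pr3, Dtx1 and Cr2 are printed because these genes shared cells. They are on chr13:51408368-51408667 (plus strand) for S1pr3, chr5:120711620-120711919 (minus strand) for Dtx1 and chr1:195176670-195176969 (minus strand) for Cr2, with matches in capitals. S1pr3 and Cr2 each held 1 RBPJ core. Dtx1 held 1 EBF core and no RBPJ core. The RBPJ core was not limited to genes that shared cells: the other windows with it were 2 of the 3 of Fcer2a, with 1 and 2 cores, and 1 of the 2 of Ebf1. A match is a description of the letters and not a bound site, and a window without one says nothing about the factor.
S1pr3: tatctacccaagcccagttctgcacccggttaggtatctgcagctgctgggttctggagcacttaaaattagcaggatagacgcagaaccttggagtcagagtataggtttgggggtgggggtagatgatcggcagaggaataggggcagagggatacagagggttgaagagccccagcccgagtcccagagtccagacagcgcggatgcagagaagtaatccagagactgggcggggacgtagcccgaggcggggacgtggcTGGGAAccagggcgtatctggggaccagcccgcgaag
Dtx1: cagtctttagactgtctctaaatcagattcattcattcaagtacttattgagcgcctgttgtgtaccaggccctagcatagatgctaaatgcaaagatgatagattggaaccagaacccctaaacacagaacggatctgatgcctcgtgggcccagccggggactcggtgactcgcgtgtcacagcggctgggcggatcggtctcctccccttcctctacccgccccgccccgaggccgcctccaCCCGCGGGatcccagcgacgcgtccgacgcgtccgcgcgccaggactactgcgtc
Cr2: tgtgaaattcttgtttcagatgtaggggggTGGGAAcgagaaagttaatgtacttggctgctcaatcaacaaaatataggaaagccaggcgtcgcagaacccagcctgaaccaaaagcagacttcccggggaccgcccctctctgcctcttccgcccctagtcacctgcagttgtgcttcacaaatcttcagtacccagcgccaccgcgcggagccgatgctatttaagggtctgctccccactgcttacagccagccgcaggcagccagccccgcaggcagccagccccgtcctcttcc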

How the data were processed

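Single-cell RNA of 4 spleen CD45+ libraries was read from the deposited UMI count tables, which the authors made with Cell Ranger on GRCm38, keeping barcodes called as cells. The 25127 table entries were summed to 24495 symbols. Cells with at least 200 genes and at most 20% mitochondrial UMIs were kept and gated on Cd79a and Cd3. Members and lists were chosen with earlier results of these data known. UMIs were summed per class and library and fitted with edgeR 4.0.16 in R 4.3.3, with TMM scaling, the library as a block and the low-count filter filterByExpr. Named genes are the members, list genes, and per comparison and direction the 10 largest fitted changes with at least 100 UMIs, an adjusted p under 0.05 and the same direction in all 4 libraries. Conditions have 1 library each, so ratios of sums carry counting intervals and no test. Alternatives were leaving out each library, no block, no low-count filter, DESeq2 1.42.0, no cell filter, 2 Cd79a UMIs, 2 Cr2 UMIs, a UMI limit of 2 medians, no other-lineage cells (2 or more summed UMIs of Lyz2, Csf1r, S100a8, S100a9, Nkg7, Klrb1c, Siglech and Lat), thinning to 2000 UMIs, TMM scaling of the gated sums, and, chosen after seeing the data, also no cells of 20 or more Jchain UMIs, and no TMM scaling in the fits. Python 3.11.15 with numpy 2.4.6, scipy 1.17.1 and pandas 2.3.3 was used, and matplotlib 3.10.9 for plots.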

Additional observations from a re-analysis of the deposited data

Results flagged for a closer look

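S1pr3 and Mzb1 stood out because the same contrast had opposite signs in 2 groups of libraries, with both counting intervals on their own side of 0. Opposite signs were not limited to these members. For anti-PD1 relative to isotype, Jchain was at -0.96 in Aire+/+ and 0.38 in Aire−/−, and Cd36 at -0.38 and 0.42. Mki67, Top2a, Hsp90b1, Itgb2, Ccr7 and Nkg7 were among further genes with opposite signs there. In Aire−/− relative to Aire+/+, Top2a, Stmn1, Calr, Jchain and Ighm were among them. For S1pr3, Aire−/− relative to Aire+/+ was -0.62 on the log2 scale in the isotype pair and 0.36 in the anti-PD1 pair, on 174, 120, 108 and 190 UMIs. Seen the other way in the same 4 libraries, S1pr3 with anti-PD1 relative to isotype was -0.48 in Aire+/+ and 0.50 in Aire−/−. For Mzb1, anti-PD1 relative to isotype was -0.16 in Aire+/+ and 0.11 in Aire−/−, where it was -0.014 without Jchain-rich and other-lineage cells. With 1 library per condition these differences between groups were not tested, and a technical and a biological origin cannot be told apart.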

How the results depend on the processing

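With each library left out, the count of genes past the threshold ran from 1875 to 2096 between cells with Cr2 alone and Fcer2a alone, from 711 to 1066 for Cd93 (717 without the Aire−/− anti-PD1 library), from 808 to 926 for Mzb1 and from 1658 to 1934 for S1pr3 or Dtx1. DESeq2 gave 1050, 437 and 894 for the Cr2 and Fcer2a classes, Mzb1, and S1pr3 or Dtx1. Thinning to 2000 UMIs gave 905, 304, 273 and 719 for the classes, Cd93, Mzb1, and S1pr3 or Dtx1. The UMI limit gave 298 for Cd93 and 556 for Mzb1, no library block gave 518 for Mzb1, and leaving out Jchain-rich and other-lineage cells, an alternative chosen after seeing the data, gave 311 for Cd93. Among genes past the threshold for Cd93, 55.4% were higher, beside 25.8% with the UMI limit, 9.54% thinned, 75.2% in DESeq2 and 27.0% without Jchain-rich and other-lineage cells. Without TMM factors, also chosen after seeing the data, the shares that were higher were 26.4% for the classes (52.5% with them), 66.7% for Cd93, 31.6% for Mzb1 and 27.7% for S1pr3 or Dtx1 (50.7%). Without them Ebf1 between the classes (0.16) and for S1pr3 or Dtx1 (0.093) and Notch2 between the classes (0.23) lost the threshold. For Cd93, 1 named gene lost it as well. For Mzb1 57.4% were higher, beside 67.8% without the block, 68.6% in DESeq2 and 75.5% thinned. The ratio of observed to expected cells with Cr2 and Fcer2a was 0.932 thinned. Aire−/− relative to Aire+/+ in the isotype pair became, on the log2 scale, 0.040 with the UMI limit and -0.013 thinned for Fcer2a, -1.24 thinned for S1pr3, -0.017 with the UMI limit and 0.041 thinned for Dtx1, and -0.35 thinned for Ebf1. In the anti-PD1 pair it became 0.15 with the UMI limit and 0.16 thinned for Cr2, 0.13 with the UMI limit, 0.13 thinned and 0.10 without Jchain-rich and other-lineage cells for Mzb1, and 0.17 with the UMI limit for Dtx1. Anti-PD1 relative to isotype became 0.11 with the UMI limit and 0.086 thinned for Fcer2a in Aire+/+, 0.24 thinned for Fcer2a in Aire−/−, and 0.017 with the UMI limit and -0.014 without Jchain-rich and other-lineage cells for Mzb1 in Aire−/−. Reversed without Jchain-rich and other-lineage cells were Jchain between the classes (-0.76), Mzb1 (-0.45), Jchain (-0.60) and Lyz2 (-0.043) for Cd93, Lyz2 for Mzb1 (0.051) and Slpi for S1pr3 or Dtx1 (0.17). Without other-lineage cells alone, Lyz2 for Cd93 (-0.55) and Lyz2 (0.052) and Ifitm3 (0.20) for Mzb1 reversed. With the UMI limit, Mzb1 (-0.32) and Jchain (-2.65) for Cd93 and Slpi for S1pr3 or Dtx1 (0.051) reversed, and with at least 2 Cr2 UMIs Jchain between the classes (-6.39). Jchain, Lyz2 and Csf1r are among the genes by which cells were left out, so where that was done the values of Jchain and Lyz2 follow from the alternative. For the others the cause was not tested. Of the values of named genes other than members that were not reversed, 1393 kept direction and side of the threshold and 124 lost the threshold only. For members these were 335 and 24. Between the classes, members included, 8 values lost the threshold in DESeq2, 8 thinned, 3 with the UMI limit and 2 without the library block. Genes filtered out under an alternative have no value there, such as Cd93 thinned. The ratios of Aire−/− to Aire+/+ shares of cells with Cr2 alone stayed within their intervals. Low capture limits Cd93, Pax5 and S1pr3 most, and a cell without a UMI may still express the gene. Mice were pooled, so spread between mice is unknown.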

Other observations

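Some antibody and division genes differed by condition among the gated cells. At 2-fold or more, 4 of 10 cell cycle genes were lower and none higher in Aire−/− relative to Aire+/+ in the isotype pair, and 2 were higher in the anti-PD1 pair. For anti-PD1 relative to isotype, 6 were lower in Aire+/+ and 3 higher in Aire−/−. None of 8 plasma cell genes passed in any of these. For both lists the shares over all genes were 4.10%, 4.10%, 3.36% and 3.69%, which include genes with as few as 10 UMIs over the pair. Jchain stood at 2320.0, 1192, 1642 and 2141 CPM, and 11, 7, 8 and 12 cells held at least 20 Jchain UMIs. Igkc and Ighg2b were chosen after their values were seen. Igkc stood at 4842, 2141, 2396 and 5259.8 CPM, highest in the Aire−/− anti-PD1 library, and Ighg2b at 12.1, 6.17, 7.81 and 207 CPM, high only there. Mki67, a division marker, stood at 17.9, 7.20, 3.98 and 9.27 CPM and Top2a at 28.0, 8.52, 9.29 and 16.8 CPM, both highest in the Aire+/+ isotype library. With so few secreting cells, such low levels of the division genes and 1 library per condition, these differences were not tested.

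A list of 5 natural killer cell genes summed to 30.6, 9.55, 36.7 and 82.6 CPM in the gated cells, with Gzma the most abundant at 13.0, 5.73, 19.3 and 55.0 CPM. It was lowest in the Aire+/+ anti-PD1 library and highest in the Aire−/− anti-PD1 library, and no gene of the list was at 0 in any library. Whether these UMIs came from joined cells or from free RNA was not tested.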
